A study of Mus musculus with 123 samples.

Results

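De novo fatty acid synthesis is the route by which the liver turns carbon from sugar and other fuels into fatty acids. Citrate that leaves the mitochondrion is split into acetyl-CoA, acetyl-CoA is carboxylated to malonyl-CoA, and a large cytosolic synthase joins these units with the reducing power of NADPH into palmitate, which the endoplasmic reticulum then lengthens and desaturates. In the liver the pathway is known to be raised by feeding and insulin and lowered by fasting and by dietary fat, largely through the amounts of its enzymes.

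The genes described here encode 7 enzymes of this route and its inputs, chosen by name: Acly, Acaca, Acacb, Fasn, Elovl6, Me1 and Aacs. All 7 were among the 15398 genes of the deposited table, and all 7 were among the 14397 genes that had at least 1 CPM (counts scaled to a common library total) in at least 3 libraries and were tested. RNA was sequenced from mouse liver. The mice received a diet that the labels call HFD (high fat, 61 libraries) or LFD (low fat, 62 libraries) and lived in 1 of 3 photoperiods, named Equal, Long and Short light. Tissue was taken at ZT0, 4, 8, 12, 16 and 20 h, where ZT is zeitgeber time. Each combination of diet and photoperiod is an arm of 20 or 21 libraries, 6 arms in all. The 36 groups of diet, photoperiod and time held 3 libraries (21 groups) or 4 (15 groups). Strain, sex, age, the fat content of the diets, the hours of light and the event that defines ZT0 were not stated in the labels. Nothing in the labels ties libraries to separate animals, so that p-values speak for the spread among libraries, which may be technical.

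Libraries ranged from 13.97 M to 39.09 M in depth (M, mega reads recovered from the values, median 24.06 M), and the 7 genes had from 270 reads (Aacs) to 533785 reads (Fasn) in a library. Hepatocyte markers averaged a log2 CPM of 11.98 to 12.86 in every library. RNA of other tissues was present in some: 23 libraries (7 HFD, 16 LFD) had a mean level of pancreas acinar or skeletal muscle markers above a log2 CPM of 4, and 5 (3 HFD, 2 LFD) had one of adipocyte markers above 1. The 2 libraries farthest from their own group, LFD Equal light ZT0 replicate 3 and HFD Equal light ZT20 replicate 1, were among the 23. In bulk RNA, fewer cells of a type and less RNA per cell cannot be told apart.

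The genes lie on 4 chromosomes of GRCm38 and are annotated as protein coding. Acly (ENSMUSG00000020917, chr11:100476353-100528000, minus strand), Fasn (ENSMUSG00000025153, chr11:120805846-120824547, minus strand) and Acaca (ENSMUSG00000020532, chr11:84129672-84401651, plus strand) share chromosome 11. Acacb (ENSMUSG00000042010, chr5:114146535-114250761, plus strand) and Aacs (ENSMUSG00000029482, chr5:125475814-125517410, plus strand) are on chromosome 5. Elovl6 (ENSMUSG00000041220, chr3:129532355-129638495, plus strand) and Me1 (ENSMUSG00000032418, chr9:86581371-86695953, minus strand) stand alone. Antisense genes share 34 exon bases with Elovl6 (0.529% of its exons) and 30 with Me1 (0.78%), and how the counting treated strand is not stated.

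Promoters are shown for Fasn and Acly, the members with the highest RNA level per length, because the 7 genes rose and fell together between libraries, as described below. Each sequence is the stretch of 150 bases that ends at the base before the annotated start, read 5′ to 3′ on the gene's strand from the RefSeq promoter table of GRCm38.p6. Capitals mark NF-Y boxes (CCAAT on either strand) and GC boxes (GGGCGG on either strand). The Fasn stretch is chr11:120824548-120824697 and the Acly stretch is chr11:100528001-100528150, both on the minus strand.
Fasn: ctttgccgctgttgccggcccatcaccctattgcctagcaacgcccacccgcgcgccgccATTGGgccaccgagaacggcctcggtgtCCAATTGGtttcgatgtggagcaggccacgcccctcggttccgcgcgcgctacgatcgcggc
Acly: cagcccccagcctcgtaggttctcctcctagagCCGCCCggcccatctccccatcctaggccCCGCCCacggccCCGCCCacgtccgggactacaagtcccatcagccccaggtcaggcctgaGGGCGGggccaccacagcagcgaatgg

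The Fasn stretch held 3 NF-Y boxes, which begin 90, 62 and 59 bases before the start, the last pair overlapping. The Acly stretch held 4 GC boxes and, 40 bases before the start, AGGTCA, the core of nuclear receptor sites. In RefSeq windows from 250 bases before to 50 after the start, an NF-Y box was found for 4 of the 7 genes, against 37.4% of 32851 windows. A GC box was found for 2 (35.7% of windows) and AGGTCA for 3 (16.3%). No window of the 7 held the E-box CACGTG (7.15% of windows), the sterol regulatory element TCACNCCAC (1.24%), the D-box TTANGTAA (2.32%) or 2 copies of AGGTCA spaced by 4 bases (0.0152%). All letters were searched on both strands, AGGTCA also lies within that repeat, and a match is only a match of letters. The windows of Acaca and Acacb lie 65766 and 18983 bases inside the annotated genes, so they belong to inner starts. Me1 was searched in 2 windows, of which the second lies 8676 bases inside the gene, and its NF-Y box was found only in that one. The NF-Y boxes of Acacb and Me1 thus come from inner windows.

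Read per length, the levels of the 7 genes spread widely. Over all libraries the median was 212 CPM per kb of annotated exon for Fasn, 169.5 for Acly, 59.4 for Elovl6, 48.1 for Me1, 38.8 for Aacs, 25.7 for Acacb and 11.5 for Acaca. Fasn, the synthase, stood above Acly in 80 libraries and below it in 43, so that this order was not the same in all. Acly stood above Elovl6 in all but 5 libraries. Elovl6 was below Me1 in 37, Me1 below Aacs in 36 and Aacs below Acacb in 35, and these neighbours therefore changed places in many libraries. Acacb was above Acaca in all but 3, with a median ratio of 2.13. The exon length of Acaca, 17074 bases, adds up all annotated transcripts, and a longer length lowers a level per kb.

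The first comparison asked how each enzyme differed with diet when photoperiods and times were averaged. Each of the 7 was lower in HFD, by 1.45-fold (Aacs) to 2.09-fold (Elovl6). All 7 passed the test in limma (Benjamini-Hochberg adjusted p from 1.7e-05 to 0.00899 over all genes). Of all 14397 genes tested, 12.6% were called lower in HFD and 12.9% higher, and the median difference of all genes was -0.0038 on the log2 scale against -0.76 for the 7.

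Acly encodes ATP citrate lyase, which makes cytosolic acetyl-CoA from citrate. Its log2 CPM ran from 7.39 to 12.55 in LFD (median 10.22) and from 7.59 to 12.11 in HFD (median 9.49). The ranges overlapped, as they did for the other 6 genes. The difference was -0.60 (SE 0.18, adjusted p 0.00899), a 1.51-fold lower level in HFD with a 95% interval of 1.18 to 1.94.

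Acaca and Acacb encode acetyl-CoA carboxylases 1 and 2. The former supplies the synthase with malonyl-CoA in the cytosol. The latter makes it at the mitochondrial outer membrane, where malonyl-CoA restrains the entry of fatty acids for oxidation. Acaca ran from 6.01 to 10.33 in LFD (median 8.04) and from 5.59 to 9.57 in HFD (median 7.20). It was 1.69-fold lower (log2 difference -0.76, SE 0.15, adjusted p 3.74e-05). Acacb ran from 5.07 to 10.13 in LFD (median 8.42) and from 4.43 to 9.56 in HFD (median 7.48), and was 1.78-fold lower (-0.83, SE 0.17, adjusted p 0.000133). Both carboxylases were thus lower, by amounts within each other's 95% intervals (1.38 to 2.08 for Acaca, 1.4 to 2.26 for Acacb).

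Fasn encodes fatty acid synthase, which builds palmitate. Fasn ran from 8.0 to 13.95 log2 CPM in LFD (median 11.49) and from 7.85 to 12.91 in HFD (median 10.81). The HFD level was 1.62-fold lower (-0.69, SE 0.20, adjusted p 0.0051). Elovl6 encodes the elongase that takes palmitate to stearate. Its range was 6.44 to 11.76 in LFD (median 9.42) and 5.70 to 11.19 in HFD (median 8.20). Its difference of -1.06 (SE 0.20, adjusted p 1.7e-05) was the largest estimate of the 7, with a 95% interval of 1.59-fold to 2.74-fold.

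Me1 encodes cytosolic malic enzyme, a source of the NADPH that the synthase uses. It ran from 5.81 to 10.24 in LFD (median 7.93) and from 4.46 to 8.85 in HFD (median 7.12). It was 1.87-fold lower in HFD (-0.91, SE 0.18, adjusted p 6.11e-05). Aacs encodes acetoacetyl-CoA synthetase, which activates the ketone body acetoacetate in the cytosol for lipid synthesis. It ran from 3.61 to 8.90 in LFD (median 7.59) and from 3.82 to 8.61 in HFD (median 6.84), and had the smallest estimate, -0.54 (SE 0.15, adjusted p 0.00573).

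Matched by photoperiod and time there are 18 pairs of HFD and LFD groups. Acaca, Elovl6 and Me1 had a lower mean in HFD in 18 of 18 pairs, Acacb in 17, Fasn in 16 and Acly and Aacs in 15. In 14 of the 18 pairs all 7 means were lower. The exceptions were Equal light ZT0 (3 of 7 lower), Long light ZT20 (4), Long light ZT12 (6) and Short light ZT0 (6). The 7 genes rose and fell together between libraries, as described below, so their agreement within a pair is not 7 separate observations. The LFD libraries of Equal light ZT0 included the one far from its group: Fasn stood there at 11.33, 11.42 and 8.34 in LFD and at 11.45, 11.12 and 11.34 in HFD. The third LFD value lay far below the other 5, which were close together.

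**Figure D1:**
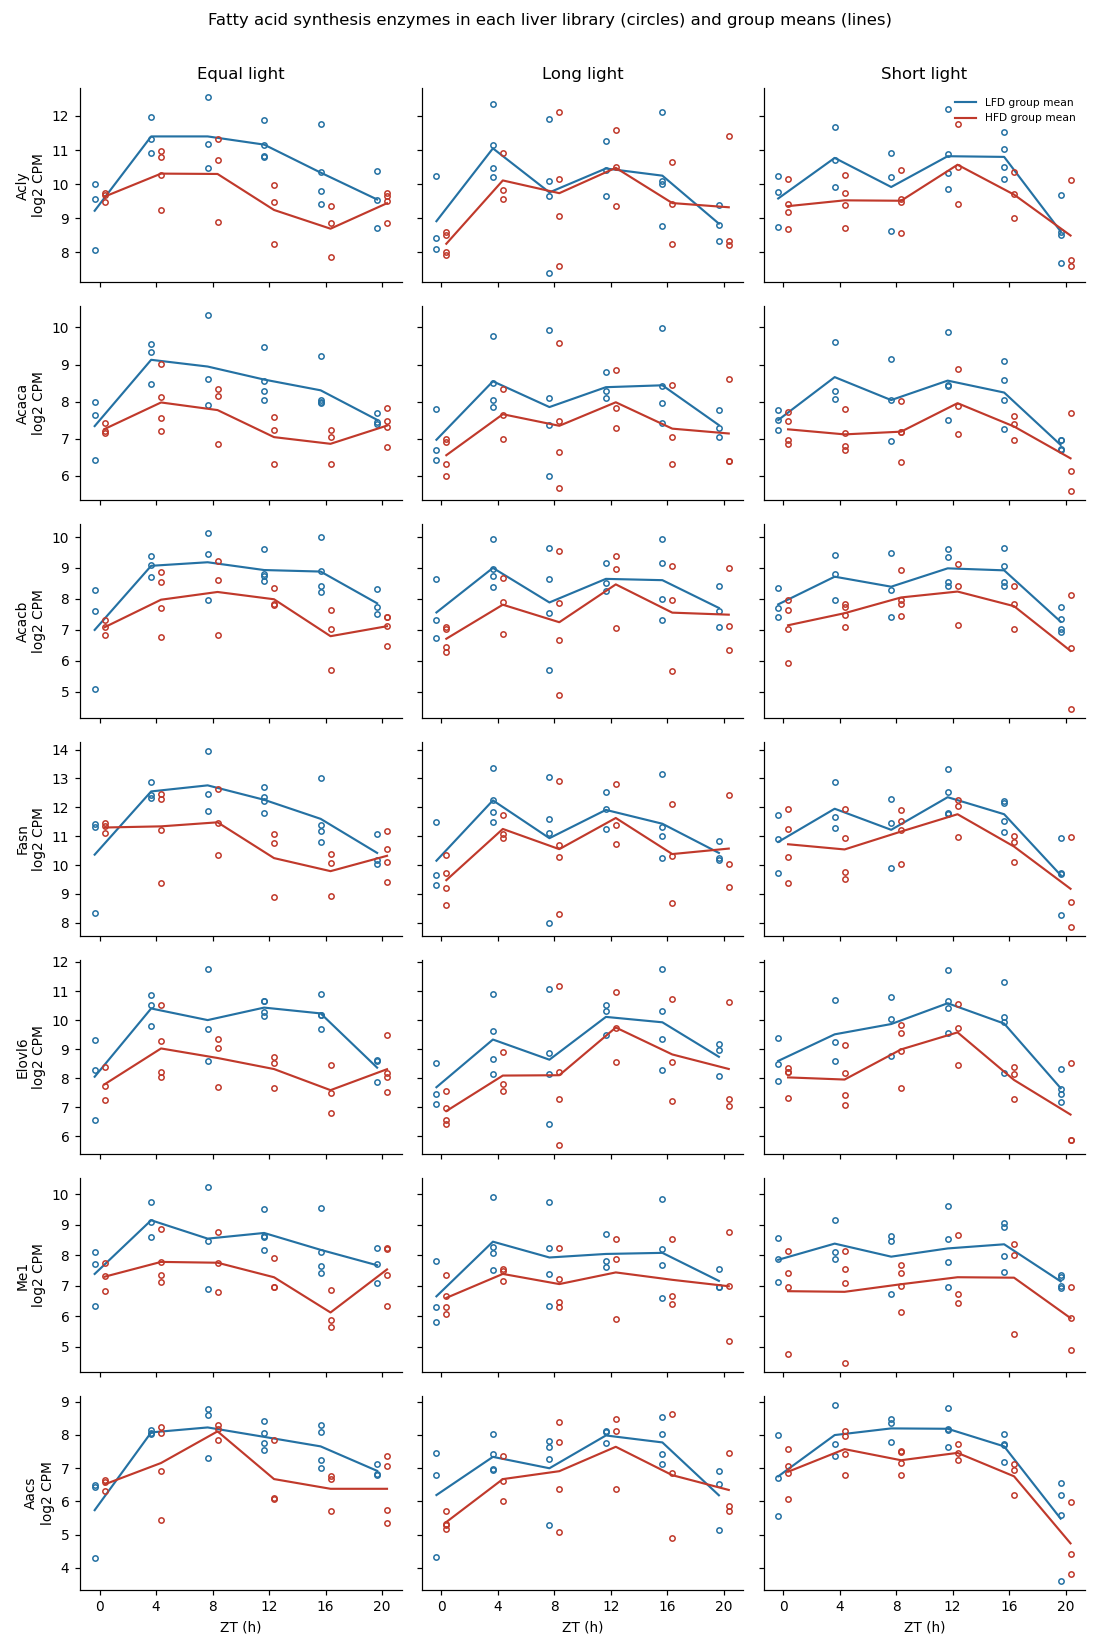
Log2 CPM (vertical axes) of the 7 genes in each library (circles) against ZT in h (horizontal axes), with 1 row of panels per gene and 1 column per photoperiod, LFD in blue and HFD in red, and lines through the group means. The HFD mean lies below the LFD mean for all 7 genes in 14 of the 18 pairs of groups, while circles of the same group spread widely, as in Long light at ZT8.

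Without replicate 1 of every group, numbered in order of deposit, 4 of the 7 kept an adjusted p under 0.05, and Acly (0.241), Fasn (0.171) and Aacs (0.249) did not. In that fit 1162 of 14397 genes were called lower in HFD, against 1817 over all libraries. Markers of another tissue moved with the diet: 10 of 10 pancreas acinar markers were lower in HFD. The mean level of these 10 markers ran from -3.45 to 5.44 log2 CPM in HFD (median -2.99) and from -3.46 to 8.25 in LFD (median -1.42), and Pnlip was at the floor of the table in 32 HFD and 11 LFD libraries. Without the 23 libraries rich in pancreas or muscle markers all 7 estimates stayed below 0, from -0.60 (Aacs) to -1.21 (Elovl6), each at least as large as over all libraries. The cut at a log2 CPM of 4 lies above both medians, so lower levels of these markers remained in the libraries kept. Whether the marker difference goes with that of the 7 genes was not tested. The mean level of 4 adipocyte markers had a median of -0.70 log2 CPM in HFD and -0.79 in LFD, and that of 10 muscle markers 0.26 and -0.62.

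The same difference was then taken within each photoperiod. In Equal light 4 of 7 genes were called lower in HFD against 3.35% of all genes: Elovl6 (-1.29, SE 0.35, adjusted p 0.0117), Acaca (-0.92, 0.0168), Acacb (-0.96, 0.0392) and Me1 (-0.98, 0.0425). Acly (-0.91, adjusted p 0.0649), Fasn (-0.92, 0.0936) and Aacs (-0.56, 0.227) had estimates of the same sign. Of the 986 genes called in Equal light 48.9% were lower, and 37% of 1019 when all libraries were set to the same median.

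In Short light Me1 (-1.13, SE 0.31, adjusted p 0.0162) and Elovl6 (-1.14, SE 0.34, adjusted p 0.027) were called, 2 of 7 against 3.14% of all genes. Acaca (adjusted p 0.0529) and Acacb (0.0679) lay just past the threshold. In Long light limma called 0 of 7 (3 at an unadjusted p under 0.05, and 0 in limma-voom) against 1.64% of all genes, with estimates from -0.75 (Elovl6) to -0.32 (Acly). Over all genes 2563 of 14397 had an unadjusted p under 0.05 there, in either direction. All 7 estimates were below 0 in each photoperiod. The diet by photoperiod interaction, which tests these differences directly, called 0 of 7 members in limma (0 at an unadjusted p under 0.05, unadjusted p from 0.418 to 0.924) and 0 in limma-voom, as it called 0% of all genes (483 at an unadjusted p under 0.05). The intervals are wide, as for Acly in Long light, where the 95% interval ran from -0.94 to 0.30. The calls within single photoperiods rest on few libraries, with 0 to 4 of 7 in Equal light and 0 to 5 of 7 in Short light when any 1 replicate number was dropped. Without replicate 1, 70 of 14397 genes were called lower in Equal light and 69 in Short light, against 482 and 452 over all libraries.

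**Figure D2:**
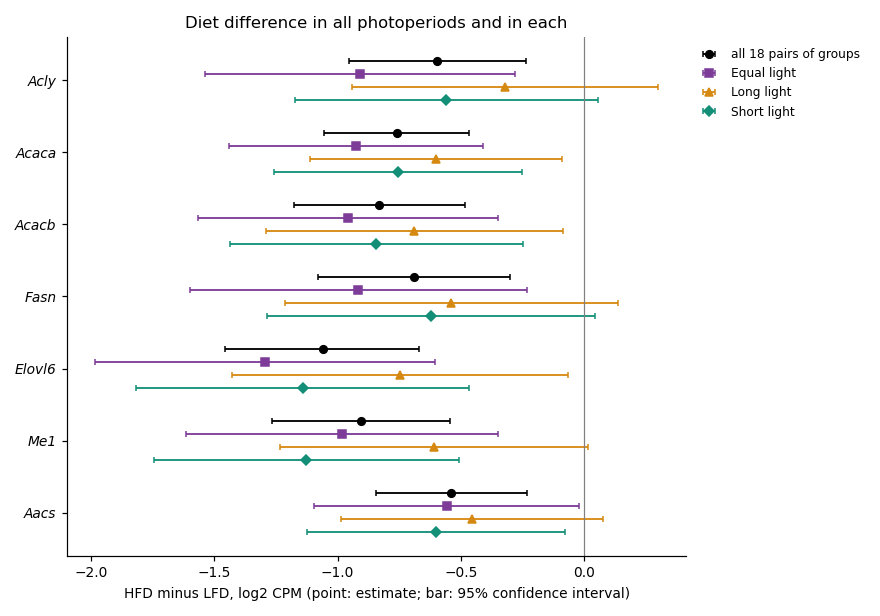
Difference in log2 CPM, HFD minus LFD (horizontal axis), for each of the 7 genes (vertical axis) over all 18 pairs of groups (black) and in each photoperiod (colours), with points for estimates and bars for 95% confidence intervals. Every estimate lies below 0, and the intervals of the 3 photoperiods overlap for every gene.

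By time of day the diet difference was lowest at ZT16 for each member but Acaca (-1.17 there, -1.19 at ZT4), and each member had its highest estimate at ZT0 or ZT20. At ZT16, averaged over photoperiods, the 7 estimates ran from -1.90 (Elovl6, 3.72-fold) to -1.05 (Aacs, 2.07-fold). Elovl6 (SE 0.48, adjusted p 0.0158) and Acacb (-1.43, SE 0.42, adjusted p 0.045) were called, 2 of 7 against 1.39% of all genes, and Acaca had an adjusted p of 0.0541. All 7 had an unadjusted p under 0.05 there, as did 2167 of all 14397 genes in either direction. Limma-voom called 1 of 7, and 0 to 2 were called when any 1 replicate number was dropped. Over all 14397 genes, limma-voom called 184 lower at ZT16 and limma without replicate 1 called 5, against 200 in limma over all libraries.

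The libraries behind the ZT16 value of Elovl6, the largest diet difference of any member and time, show where the groups parted. They gave that estimate, so a lack of overlap among them restates it and adds no test. In Equal light the log2 CPM of Elovl6 was 8.45, 7.5 and 6.82 in HFD and 9.70, 10.16, 10.16 and 10.90 in LFD. These groups did not overlap. In Short light it was 8.39, 7.27 and 8.16 in HFD and 9.93, 10.11, 8.19 and 11.30 in LFD, where the third LFD library lay among the HFD values. In Long light it was 7.20, 10.71 and 8.55 in HFD and 8.29, 11.75, 9.35 and 10.31 in LFD, and the groups overlapped.

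For Fasn at ZT16 in Equal light the HFD libraries stood at 10.37, 10.06 and 8.93 and the LFD libraries at 11.38, 10.80, 11.18 and 13.03. Again the highest HFD value was below the lowest LFD value. In Long light the values were 8.68, 12.13 and 10.32 against 10.26, 13.15, 11.32 and 10.99, with overlap. In Short light they were 10.81, 10.12 and 11 against 12.14, 11.53, 11.14 and 12.21, without overlap. ZT16 also gave the largest diet difference of Fasn, so these values likewise add no test.

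At ZT4 the estimates ran from -1.39 (Elovl6) to -0.67 (Aacs). Limma called 0 of 7 there (6 at an unadjusted p under 0.05, and 0 in limma-voom), against 1.1% of all genes, with the lowest adjusted p at 0.0525 (Acaca). At ZT8 the count was 0 of 7 (1 at an unadjusted p under 0.05, 0 in limma-voom) against 0.0278% of genes. ZT12 gave 0 of 7 (4 at an unadjusted p under 0.05, 0 in limma-voom) against 0.00695%. Over all 14397 genes, an unadjusted p under 0.05 in either direction was reached by 2196 at ZT4, 1486 at ZT8 and 1143 at ZT12. At ZT0, 0 of 7 were called (0 at an unadjusted p under 0.05, 0 in limma-voom) against 0.181%, and Fasn (0.06, SE 0.49) and Aacs (0.03, SE 0.38) had estimates above 0. Of the 68 genes called at ZT0, 38.2% were lower, and 25.8% of 66 with equal medians. At ZT20 the count was again 0 of 7 (0 at an unadjusted p under 0.05, 0 in limma-voom) against 0.229%, and Acly had an estimate of 0.08 (SE 0.45).

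Whether the diet difference itself varied with time was tested by the diet by ZT interaction. It called 0 of 7 members in limma (0 at an unadjusted p under 0.05, unadjusted p from 0.233 to 0.568) and 0 in limma-voom, as it called 0% of all genes (340 at an unadjusted p under 0.05). The larger estimates at ZT16 were therefore not shown to differ from those at ZT0 and ZT20.

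**Figure D3:**
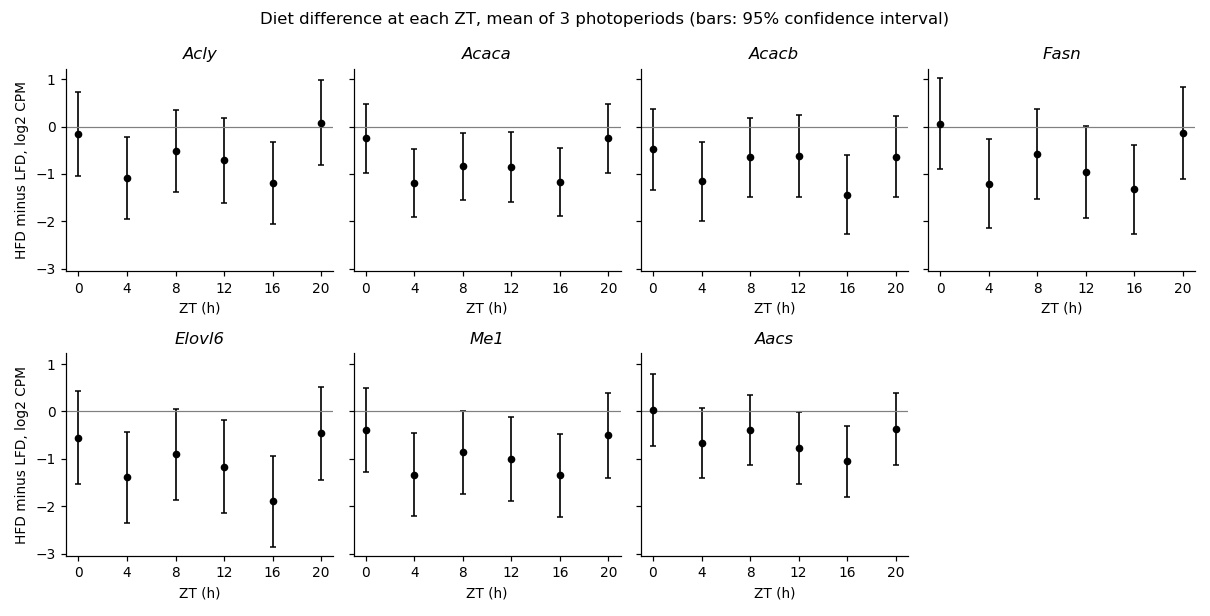
Difference in log2 CPM, HFD minus LFD (vertical axes), at each ZT in h (horizontal axes) for each of the 7 genes, averaged over the 3 photoperiods, with bars for 95% confidence intervals. The intervals at ZT16 lie below 0 for all 7 genes, those at ZT0 and ZT20 reach above 0, and the intervals of different times overlap.

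Photoperiod was compared next, as the level over the cycle with both diets together. Limma called 0 of 7 between Long and Short light (0 at an unadjusted p under 0.05, 0 in limma-voom) against 0% of all genes, with estimates from -0.23 to 0.03 on the log2 scale. Between Long and Equal light 0 of 7 were called (0 at an unadjusted p under 0.05, 0 in limma-voom) against 0.0278%, and between Short and Equal light 0 of 7 (0 and 0 likewise) against 0.00695%. All 7 estimates were below 0 in both, from -0.37 to -0.12 for Long minus Equal and from -0.36 to -0.07 for Short minus Equal, and these comparisons share the Equal light libraries. The SEs were 0.18 to 0.24, so that differences of that size could not be resolved.

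Daily rhythms were described by a cosine of 24 h in each arm, whose amplitude is the distance from mean to peak on the log2 scale. Averaged over the 6 arms, a test added after the data were seen, the cosine was called for 7 of 7 genes (adjusted p from 6.84e-09 for Aacs to 0.0185 for Me1) against 50.5% of all genes. When any 1 replicate number was dropped, 5 to 7 of the 7 remained past the threshold.

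In LFD Equal light 4 of 7 were called rhythmic against 20.9% of all genes: Fasn (amplitude 1.26, SE 0.36, adjusted p 0.0216, a 5.71-fold swing from trough to peak), Aacs (0.98, adjusted p 0.0262), Acly (1.13, 0.0275) and Elovl6 (1.15, 0.0358). Their peaks fell at ZT8.85, 10.1, 8.88 and 10.4 h. Without replicate 1, without replicate 3, without the 2 libraries farthest from their groups, and without those rich in muscle or pancreas markers, 0 of 7 were called in this arm. In LFD Short light Aacs (1.28, SE 0.28, adjusted p 0.000805, peak at ZT9.09 h) and Elovl6 (1.28, SE 0.34, adjusted p 0.00857, peak at ZT10.3 h) were called, 2 of 7 against 27.1%. Limma called 0 of 7 in LFD Long light (1 at an unadjusted p under 0.05, 0 in limma-voom) against 23.6%. Of all 14397 genes, 5292 had an unadjusted p under 0.05 in that arm.

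In HFD Long light Aacs (0.90, adjusted p 0.0378) and Elovl6 (1.1, adjusted p 0.0421) were called, 2 of 7 against 21.8%. In HFD Short light the call went to Aacs alone of the 7 (1.0, SE 0.28, adjusted p 0.0228), against 14.1%. HFD Equal light gave 0 of 7 (1 at an unadjusted p under 0.05, 0 in limma-voom) against 16.5%. Of all 14397 genes, 4590 had an unadjusted p under 0.05 in that arm. When any 1 replicate number was dropped, the counts ran from 1 to 5 in LFD Short light, 0 to 3 in HFD Long light and 0 to 2 in HFD Short light. Over all libraries Aacs and Elovl6 were the members called most often, and Acaca, Acacb and Me1 had no call in any single arm. In LFD Equal light Acaca (adjusted p 0.0583) and Acacb (0.0664) lay just past the threshold in limma, and members were not tested against each other. Outside LFD Equal light the counts in single arms were near or below the shares of all genes.

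Aacs in Short light, where LFD gave the lowest adjusted p of any member and arm, shows the daily swing in single libraries. In LFD it stood at 8.46, 7.77 and 8.34 log2 CPM at ZT8 and at 6.18, 3.61, 6.54 and 5.6 at ZT20. In HFD it stood at 7.48, 7.16, 7.5 and 6.80 at ZT8 and at 4.42, 5.98 and 3.82 at ZT20. On both diets every ZT8 library lay above every ZT20 library. ZT8 and ZT20 lie near the fitted peak and trough in this photoperiod. The fit used these same values, so the separation restates it and adds no test. In Equal light the times did not overlap either. The lowest ZT8 and highest ZT20 libraries stood at 7.29 and 7.13 in LFD, and at 7.85 and 7.37 in HFD. In Long light the times overlapped: LFD had a library at 5.29 at ZT8 and 1 at 6.90 at ZT20, and HFD had 5.09 and 7.46.

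The fitted peaks of the 7 genes fell between ZT8.62 and 10.4 h in LFD Equal light, between ZT9.01 and 13 h in LFD Long light and between ZT9.09 and 10.5 h in LFD Short light. In HFD they fell between ZT4.07 and 7.55 h in Equal light, between ZT10.7 and 13.1 h in Long light and between ZT7.48 and 10.7 h in Short light. In LFD Long light and HFD Equal light no member was called rhythmic, and SEs of peak times were large, such as 3.62 h for Acacb in the former and 1.74 h for Acly and 2.69 h for Elovl6 in the latter. The test of a rhythm difference between diets called 0 of 7 in limma (0 at an unadjusted p under 0.05, 0 in limma-voom) against 0.00695% of all genes.

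Rhythm differences between photoperiods were called for many genes of the liver: the test over the 3 photoperiods called 49.1% of all genes, and that of Long against Short light 52.9%. Of the 7 enzymes, 0 were called over the 3 photoperiods (0 at an unadjusted p under 0.05, 0 in limma-voom), with the lowest adjusted p for Aacs (0.0939) and Elovl6 (0.0955). Between Long and Short light 1 of 7 was called, Aacs (adjusted p 0.0293), and Elovl6 had an adjusted p of 0.0914. The other 5 had adjusted p-values from 0.496 to 0.991. Aacs lost the call without replicate 1 (0.0748), replicate 2 (0.193) or replicate 4 (0.0621).

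With both diets together Aacs peaked 3.19 h later in Long than in Short light (95% interval 0.95 to 5.43 h) and Elovl6 3.04 h later (0.57 to 5.51 h). The shift of Acly was -0.43 h (-3.92 to 3.07), of Acaca 1.09 h (-2.72 to 4.91), of Acacb 1.34 h (-3.30 to 5.98), of Fasn 0.46 h (-3.27 to 4.18) and of Me1 0.35 h (-5.31 to 6.01). These 5 intervals include 0. In the same libraries 6 clock genes, which form or read out the circadian oscillator, shifted by 7.86 h (Arntl) to 8.41 h (Npas2), and the lowest bound of their intervals was 6.88 h (Arntl). In this pair of photoperiods the upper bounds of all 7 enzymes lay below the estimates of all 6 clock genes. The intervals are approximate, and the peak of a weak rhythm is poorly set. In Long light the amplitude was 0.39 for Acacb (peak SE 2.07 h) and 0.43 for Me1 (1.94 h). That of the clock genes was 1.0 to 3.5. The bounds of such enzymes therefore do not by themselves set them apart from the clock genes.

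The other pairs gave another picture. From Equal to Long light the enzymes peaked later by 2.41 h (Acacb) to 3.99 h (Elovl6) and the clock genes by 3.22 h (Nr1d1) to 5.53 h (Per2), with overlapping intervals, and of the enzymes only Elovl6 (0.75 to 7.23 h) and Aacs (0.11 to 5.37 h) had an interval above 0. For Equal minus Short light the enzymes had shifts from -3.25 h (Me1) to 0.46 h (Aacs), all with intervals that include 0, and the clock genes from 2.73 h (Per2) to 5.01 h (Nr1d1). The pairs share libraries, and the difference between enzymes and clock genes was not tested by itself in any of them.

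**Figure D4:**
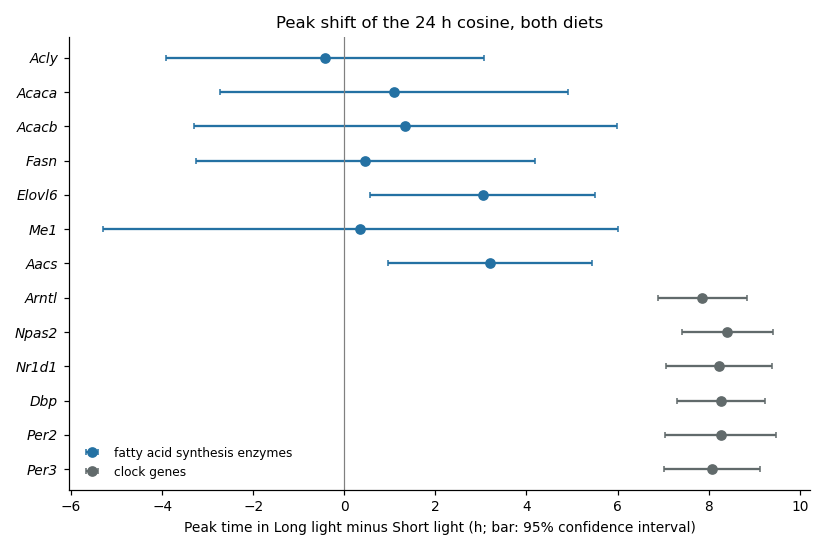
Peak time in Long light minus peak time in Short light in h (horizontal axis) for the 7 enzymes (blue) and 6 clock genes (grey), with both diets together and bars for 95% confidence intervals. The enzymes lie between -0.43 and 3.19 h, and the clock genes between 7.86 and 8.41 h.

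Libraries of the same group differed widely in these genes. The SD within groups was 0.83 (Acaca) to 1.11 (Elovl6) log2 CPM, against a median of 0.253 over all genes, and was higher than that of 96% (Acaca) to 98.3% (Elovl6) of genes. In a median group the highest library of Fasn was 4.08-fold above the lowest. In LFD Long light ZT8 Fasn stood at 13.05, 11.58, 11.10 and 8.0, a 33.1-fold range, and Acaca at 9.93, 8.10, 7.38 and 6.01. The same library was highest for both genes and the same one lowest. In HFD Long light ZT8 Elovl6 stood at 7.29, 5.70, 11.19 and 8.23, a 44.9-fold range, Acly at 9.08, 7.59, 12.11 and 10.16, and Acacb at 6.67, 4.89, 9.56 and 7.86. Here the third library was highest and the second lowest for all 3 genes. None of these 8 libraries was among those rich in markers of other tissues.

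The deviations of libraries from their group means were compared between members, 21 pairs over all libraries. Pearson's r ran from 0.49 (Me1 and Aacs) to 0.94 (Acaca and Elovl6) and Spearman's rho from 0.50 to 0.93. Every pair had a two-sided permutation p of 1e-05 for r and for rho, the smallest that 100000 permutations within groups can give, and an adjusted p of 1e-05 over the 21 pairs. Without the 2 libraries farthest from the median of the first gene, r was 0.52 to 0.93. In HFD alone r ran from 0.44 to 0.96 and in LFD alone from 0.45 to 0.94. Me1 with the other members except Aacs had r of 0.57 to 0.65 in HFD and 0.84 to 0.94 in LFD, and Aacs had the lower values in LFD, 0.45 with Elovl6 to 0.75 with Fasn. The difference in r between diets was not tested. All values of a library share its depth and scaling.

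**Figure D5:**
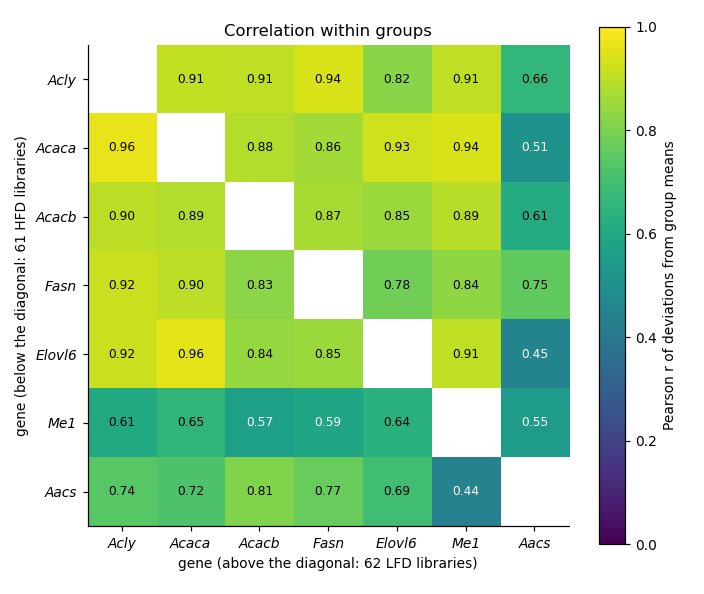
Pearson's r between the deviations of 2 genes from their group means, with genes on both axes, the 62 LFD libraries above the diagonal and the 61 HFD libraries below it, and colour from 0 to 1. The highest value is 0.96 in HFD and 0.94 in LFD, and the lowest are 0.44 (Me1 and Aacs in HFD) and 0.45 (Elovl6 and Aacs in LFD).

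Fasn was set against 11 transcription regulators of lipogenesis in the same way. Its deviations went with those of Insig1, which retains the sterol sensor complex (r 0.66, rho 0.60, adjusted p 3.67e-05 for both over the 11, r 0.62 without the 2 farthest libraries). They also went with those of Scap, the escort of the SREBP factors (r 0.59, rho 0.58, 0.58), Srebf2 (r 0.59, rho 0.58, 0.58) and Srebf1, the SREBP gene best known for fatty acid synthesis (r 0.45, rho 0.42, 0.43). For Srebf1 the adjusted p was 0.000165 for r and 0.00022 for rho. Mlx (r 0.41) and Mlxipl, the carbohydrate response factor ChREBP (r 0.38), had adjusted p-values of 0.000704 and 0.00152. Insig2 (r 0.11, adjusted p 0.332), Nr1h3 (0.11, 0.332), Nr1h2 (0.08, 0.471), Usf1 (-0.22, 0.0608) and Usf2 (-0.14, 0.276) did not pass for r, while the rho of Usf1 was -0.26 with an adjusted p of 0.0174.

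Over the 36 group means, pairs of the 7 enzymes had r from 0.75 (Me1 and Aacs) to 0.97 (Acly and Fasn). Among 9655 other named genes, all with log2 CPM averaging 2 or more, the nearest profile to that of Acly was Dhcr7 (r 0.97), to that of Acaca Fdps (0.95), to that of Acacb Cyb5r3 (0.93) and to that of Fasn Fdps (0.94). For Elovl6 it was Enpep (0.93), for Me1 Fdps (0.90) and for Aacs Pklr (0.93). Fdps was among the first 3 for 5 of the 7 enzymes and Acss2 for 3. Among the 10 profiles nearest to the mean of the standardized enzymes were Fdps (0.97), Acss2 (0.95), Chrna4 (0.95), Acat2 (0.94), Pnpla3 (0.93), Dhcr7 (0.93), Lss (0.91) and Pklr (0.90). These values describe 36 points that share diet and time, and carry no test.

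Genes that feed, control or extend the pathway were counted in 7 lists, of which 57 genes were tested between the diets. Of these 15 were called lower in HFD and 8 higher, against 12.6% and 12.9% of all genes.

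Among 8 genes of citrate, acetyl-CoA and malate supply 2 were lower (median -0.04): Acss2, which makes acetyl-CoA from acetate (-0.70, SE 0.17, adjusted p 0.00103), and the citrate carrier Slc25a1 (-0.20, adjusted p 0.00172). Pcx (0.12, adjusted p 0.0612) and Cs (-0.12, 0.113) did not pass. Of 6 other cytosolic NADPH genes 2 were lower (median -0.10), G6pdx, which opens the pentose phosphate pathway (-1.14, SE 0.21, adjusted p 1.16e-05), and Tkt (-0.16, adjusted p 0.0485). Pgd had -0.24 (adjusted p 0.0793) and Idh1 0.07 (0.154). Of 8 genes that control acetyl-CoA carboxylase and malonyl-CoA 1 was lower (median -0.035), the AMP kinase subunit Prkaa2 (-0.17, adjusted p 0.000471), and Thrsp had -0.30 (adjusted p 0.229).

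Of 11 tested genes of elongation and desaturation 5 were lower and 1 higher (median -0.14). Scd1, the main liver desaturase of stearate, was 1.88-fold lower (-0.91, SE 0.19, adjusted p 0.000105), Elovl1 -0.27 (adjusted p 7.11e-07) and Tecr -0.24 (0.000435), while Hacd3 was higher by 0.09 (0.00767). The separate mitochondrial fatty acid synthesis pathway had 1 of 6 lower and 2 higher (median 0.05): Ndufab1 (-0.09, adjusted p 0.00814), Oxsm (0.11, 1.78e-05) and Acsf3 (0.17, 0.000432). Of 7 genes of acetoacetate making and use 4 were higher and 1 lower (median 0.23). Acat1 (0.35, SE 0.04, adjusted p 2.49e-10) and Bdh1 (0.23, 4.31e-05) were among the higher. Acat2 was lower (-0.38, adjusted p 0.0083), and Oxct1 did not pass (-0.17, 0.196). Aacs, which also uses acetoacetate, was lower, as given above.

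Among the 11 regulators 3 were lower and 1 higher (median 0.0004): Scap (-0.23, SE 0.07, adjusted p 0.00586), Mlxipl (-0.17, 0.00758), Usf2 (-0.08, 0.0442) and Insig2 (0.27, 0.0223). In the Long against Short light rhythm test 25 of the 57 genes were called, against 52.9% of all genes and 1 of the 7 enzymes.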

How the data were processed

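The authors deposited 1 table of log2 CPM values, 15398 genes in 61 HFD and 62 LFD libraries. The tools named in the submitters' processing notes are STAR, Subread 1.6.2 and featureCounts, with build mm10 (GRCm38). Normalization, counting options and annotation are not given in the sources used here. Per the labels' protocols, libraries were stranded, poly-A selected and read as pairs. The lowest value, -3.61 in every library, equals 0.0818 CPM. The size of 1 read was fitted in each library from the spacing of its lowest values above that floor. With it, 99.4% to 99.7% of values per library came out as whole reads within 0.05 read, which gave the depths. The floor then equalled 1.16 to 3.07 reads per library, with a mean of 2. The fitted size of 1 read also implies a library size, which could differ from the recovered total. It was 24.2 M against 26.8 M in LFD Long light ZT20 replicate 2. In LFD Equal light ZT0 replicate 3 it was 26.4 M against 21.6 M. The values were therefore not scaled by these totals alone. Groups came from the titles, and replicate numbers follow the order of deposit.

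The log2 values were fitted with limma 3.58.1 (R 4.3.3) and a variance trend, over all libraries, with 1 mean per group and equally weighted contrasts, or a cosine and sine of 24 h per arm. Benjamini-Hochberg adjustment ran over 14397 genes, with a threshold of 0.05. Limma-voom on the recovered reads, other scalings, filters and left-out libraries were alternatives. The fits were tested on simulated data. Positions and exon lengths came from GENCODE release M21.

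The members, lists, tests and naming rules were chosen with earlier results of these data known. Named are the 7 members, the 11 regulators set against Fasn, 6 clock genes for peak time, the marker Pnlip, and the 3 (10 for the members' mean) most alike profiles. For the diet difference up to 4 genes per list were named. They were taken by the smallest p, with some ranks passed over and later ones named. Some genes that these rules name are not reported here.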

Additional observations from a re-analysis of the deposited data

Results flagged for a closer look

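The 15 groups of 4 libraries were examined for a library far from the others, for each of the 7 genes. In 2 cases a library stood apart, while chance alone marks about 5% of such groups. Acaca in LFD Equal light at ZT16 had 1 library at a log2 CPM of 9.22 and the others between 7.96 and 8.05. Elovl6 in HFD Short light at ZT0 had 1 library at 7.33 and the others between 8.20 and 8.34. The rhythm of Aacs differed between Long and Short light by the test of the difference itself (limma, adjusted p 0.0293), with a peak 3.19 h later in Long light. That test called 52.9% of all genes, and of the 7 members Aacs alone. Aacs lost the call without replicate 1, 2 or 4.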

How the results depend on the processing

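In the fits of the diet difference over all photoperiods and times, the 7 estimates stayed below 0 in all 14 alternatives, and their ranges were -0.77 to -0.39 for Acly, -0.89 to -0.61 for Acaca, -0.96 to -0.62 for Acacb, -0.83 to -0.50 for Fasn, -1.21 to -0.89 for Elovl6, -1.08 to -0.88 for Me1 and -0.65 to -0.33 for Aacs. For single members 504 values were recomputed under alternatives, which cover the diet difference overall and in each photoperiod and the rhythm test of Long against Short light. Of these 467 kept their side of the threshold, 25 lost the call and 12 gained it, and no diet difference changed sign (the rhythm test has no direction). When any 1 replicate number was dropped, the members called were 4 to 7 between diets, 0 to 4 in Equal light, 0 to 5 in Short light and 0 to 2 at ZT16. For rhythm they were 0 to 4 in LFD Equal, 0 to 1 in LFD Long, 1 to 5 in LFD Short, 0 to 3 in HFD Long and 0 to 2 in HFD Short light, and for Long against Short light 0 to 1. Limma-voom called 1 at ZT16. Without libraries rich in pancreas or muscle markers the counts were 1 in Short light and 1 at ZT16, and for rhythm 0 in LFD Equal, 4 in LFD Short and 0 in HFD Long light. Without libraries rich in adipocyte markers they were 2 in Equal light and 0 for rhythm in HFD Long light, and without the 2 farthest libraries 1 at ZT4, 0 for rhythm in LFD Equal light and 1 for the rhythm difference between photoperiods. These last 2 settings were chosen after the data were seen. With the 6 times as separate means the rhythm counts were 1 in LFD Equal light, 0 in HFD Long light and 1 between photoperiods. With cosines of 24 h and 12 h they were 2 in LFD Equal light, 5 in LFD Short light, 0 in HFD Long light and 1 between photoperiods. Fewer libraries enter where some are left out, and otherwise the cause was not tested. Without replicate 1 the genes called lower went from 1817 to 1162 of 14397 between diets and from 200 to 5 at ZT16. In Equal light they went from 482 to 70 and in Short light from 452 to 69. Lost calls were thus not particular to the 7 genes. For the rhythm counts without some libraries, shares over all genes are not given. The lowest read count of a member in a library was 270 (Aacs), and whether depth adds to the spread within groups was not tested. No paired analysis was possible because the replicate numbers follow only the order of deposit.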
